A study of Mus musculus with 6 samples.

Results

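Among the genes read by the arrays, 18 had a probe whose signal was above background in every *Prdm14*-deficient embryonic stem (ES) cell sample and in no wild-type sample. They were chosen by the deposited detection p-value, which compares a probe with negative control beads on the same array: under 0.01 on all 3 *Prdm14*-null arrays and 0.05 or more on all 3 wild-type arrays. Of 45281 probes, 29 met both conditions, which is 0.064% of them, and the reversed conditions were met by 131 probes, or 0.289%. Among the 29, 3 carried no single gene symbol and 8 belonged to 6 genes set aside by name (*Baiap2l1*, *Wnt8a*, *Adam23*, *Thy1*, *Hs6st2* and *Col4a2*). The remaining 18 probes read 18 genes, of 9046 genes with a named probe. The wild-type/null difference of these probes is therefore a consequence of how they were selected, and it is given below as a description with no test.

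RNA came from ES cells of the C57BL/6 background, either wild type or lacking *Prdm14*, with 3 samples of each genotype. All were kept in 2i, a medium with inhibitors of MEK and of glycogen synthase kinase-3, and the null cells descend from mice made with a EUCOMM targeted allele. Each genotype was sampled at consecutive passages, and how many independent lines lie behind the samples was not stated, so p-values cover only the spread between these samples. Hybridization was to Illumina Mouse WG-6 BeadChips, on which a gene is read by 1 or more probes.

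PRDM14 is a zinc finger protein of the PR domain family that binds DNA in ES cells and primordial germ cells. It is known mainly as a repressor that keeps differentiation genes silent, in part through Polycomb proteins and the partner protein CBFA2T2. In bulk RNA of this kind, more cells with a transcript and more transcript per cell cannot be told apart.

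Promoter sequence was examined for 13 of the 18 genes (RefSeq, GRCm38.p6, 18 windows from 250 bases before to 50 bases after a gene start). *Ido1* and *Kctd12b* had no promoter entry, and *Pmaip1*, *Trim36* and *Gramd3* were left out of the search. A motif described for PRDM14 in human ES cells reads GGTCTCTAA, and its core GGTCTCT was searched on both strands. The core was found in 2 of the 18 windows, those of *Lsr* and *Rftn1*, which are printed below because they hold it. Among all 32851 windows 5.68% held the core, and among the 8103 windows of genes detected on all null arrays 5.27% did. The whole motif was in 0 of the 18 windows and in 0.256% of all windows. Capitals mark the core, which lies on the same strand as the gene and starts at position -199 from the gene start in *Lsr* (chr7:30973420-30973719, minus strand) and at -131 in *Rftn1* (chr17:50190448-50190747, minus strand).
Lsr: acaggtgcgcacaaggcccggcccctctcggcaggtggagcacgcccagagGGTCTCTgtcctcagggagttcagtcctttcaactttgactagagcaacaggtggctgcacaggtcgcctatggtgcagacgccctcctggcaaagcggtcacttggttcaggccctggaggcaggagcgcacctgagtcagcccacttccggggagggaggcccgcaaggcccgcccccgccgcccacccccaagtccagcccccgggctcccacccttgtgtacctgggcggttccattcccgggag
Rftn1: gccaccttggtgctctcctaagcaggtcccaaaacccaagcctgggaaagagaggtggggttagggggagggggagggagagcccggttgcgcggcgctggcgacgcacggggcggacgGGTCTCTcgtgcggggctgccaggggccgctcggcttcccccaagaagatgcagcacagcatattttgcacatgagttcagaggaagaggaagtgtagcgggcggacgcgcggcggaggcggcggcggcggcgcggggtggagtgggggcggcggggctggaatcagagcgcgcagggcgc
A match to these letters is a description of the sequence and not a binding site. The 18 windows were rich in CpG, with a median of 23.5 CpG dinucleotides per 300 bases (range 6 to 39). The median over the windows of all genes detected in the null cells was 21, and over all windows it was 7. Their median GC content was 67.5%, against 61% for the windows of detected genes.

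The label of the arrays was checked on *Prdm14* itself. Its 2 probes were detected on all 3 wild-type arrays and on 0 null arrays, with normalized log2 signals of 8.47 ± 0.05 (SD, n = 3) against 5.01 ± 0.14 and of 7.03 ± 0.03 against 4.61 ± 0.06. Whether these probes lie in the deleted stretch of the gene was not stated. Between 13456 and 14901 probes per array were detected at a p under 0.01. All 10 ES cell markers were measured, and their summed signal was 54800 to 56700 in the null samples and 53200 to 56100 in the wild type. This sum is weighted to the brightest markers, such as *Dppa5a* at 14.7. Of the 10, 2 were called higher in the null cells (limma, adjusted p under 0.01), 0 lower, and 8 did not pass. The 2 were *Utf1* (log2 difference 2.21) and *Sox2* (0.54). Over all 8343 genes 6.69% were called higher and 8.4% lower. Of 12 fibroblast markers 4 were measured, with a summed signal of 1910 to 3030 in the null and 2990 to 4440 in the wild-type samples. *Thy1* was higher in the null cells, while *Col1a1*, *Col1a2*, *Col3a1*, *Dcn*, *Lum*, *Postn*, *Pdgfrb* and *Fbln2* had no named probe past the detection filter. None of 8 blood and macrophage markers had such a probe (0 of 8). Genes without any named probe count here as well, so these markers were not shown to be absent. The Y-linked gene *Eif2s3y* read 8.55 ± 0.12 in the null and 5.04 ± 0.24 in the wild-type cells, with 0 wild-type arrays detected, while Y-linked *Uty* was detected on all 6 arrays at 6.21 ± 0.26 and 5.90 ± 0.10. The *Eif2s3y* difference runs with genotype, so its part in the results on the 18 genes was not tested and cannot be told apart from that of *Prdm14* here.

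The 18 selected probes were dim in the *Prdm14*-null cells. Their mean normalized log2 signal ran from 5.88 to 7.14 with a median of 6.33, whereas the 13094 probes detected on all null arrays had a median of 8.31. Placed among those 13094 probes, the 18 lay between percentile 0.435 and 26.5, with a median of 9.04. All 18 were thus below the middle of the detected probes. This describes the selected probes and not the genes, since other probes of *Tspan17*, *Plpp2* and *Msi2*, given below, read above that median. Of the 29 probes with the pattern, the ones set aside by name included brighter ones in the null cells, with *Baiap2l1* at 10.4 and 2 of the *Wnt8a* probes at 8.05 and 7.98. Probes differ in how well they hybridize, so a low signal does not by itself mean a low amount of transcript. In wild-type cells the median of the 18 was 4.82. Since a probe was required to be undetected in the wild type, this is where the wild-type values had to lie.

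**Figure D1:**
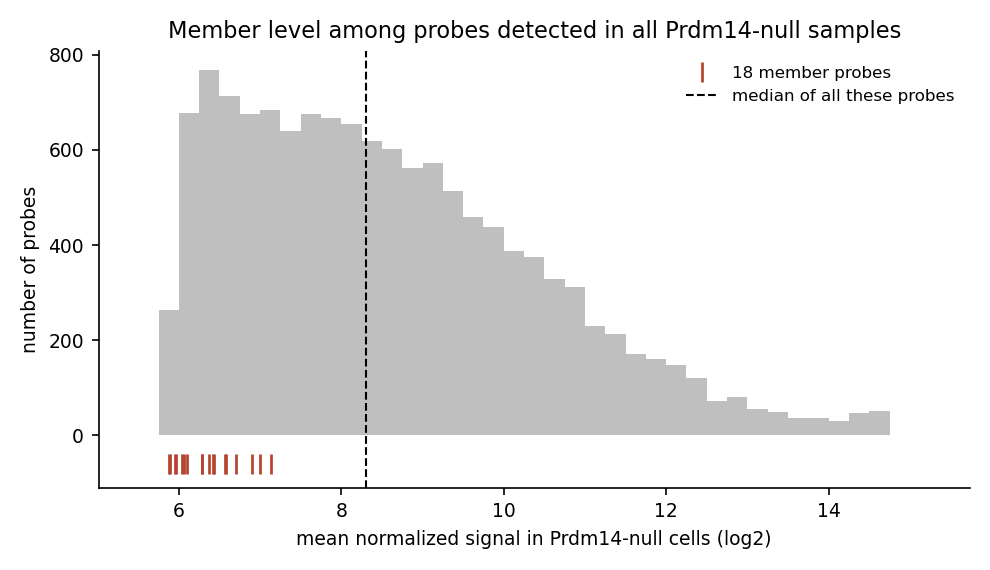
Distribution of the mean normalized log2 signal in *Prdm14*-null cells over the 13094 probes detected on all 3 null arrays, with ticks for the 18 selected probes and a dashed line at the median of all 13094. The 18 lie between 5.88 and 7.14, below the median of 8.31.

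The null samples agreed closely for these probes. The median SD over the 3 null arrays was 0.18, close to the 0.16 of the 3418 detected probes in the same range of means. The null signal was highest in sample 1 for 5 genes, in sample 2 for 6 and in sample 3 for 7, while of the 3418 probes 35.8%, 28.8% and 35.4% were highest in these samples. For all 18 selected probes the lowest null value lay above the highest wild-type value, which the selection all but fixes, and the same held for 22.8% of all tested probes. Among tested probes 6.19% were called higher and 7.56% lower in the null cells (limma, 894 and 1092 of 14436 at an adjusted p under 0.01), and all 18 were among the higher ones, which follows from the selection and is not read further. Folds are stated as lower bounds, with the null mean set on each wild-type array against the dimmest detected signal or the probe's own, whichever was higher. These bounds ran from 1.17 to 2.80 with a median of 1.60. They hold only on this background-corrected scale, and so do the folds given below as at least a value. On the authors' processed scale the log2 differences of the 18 ran from 0.32 to 0.82, so a bound here can exceed the fold there.

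**Figure D2:**
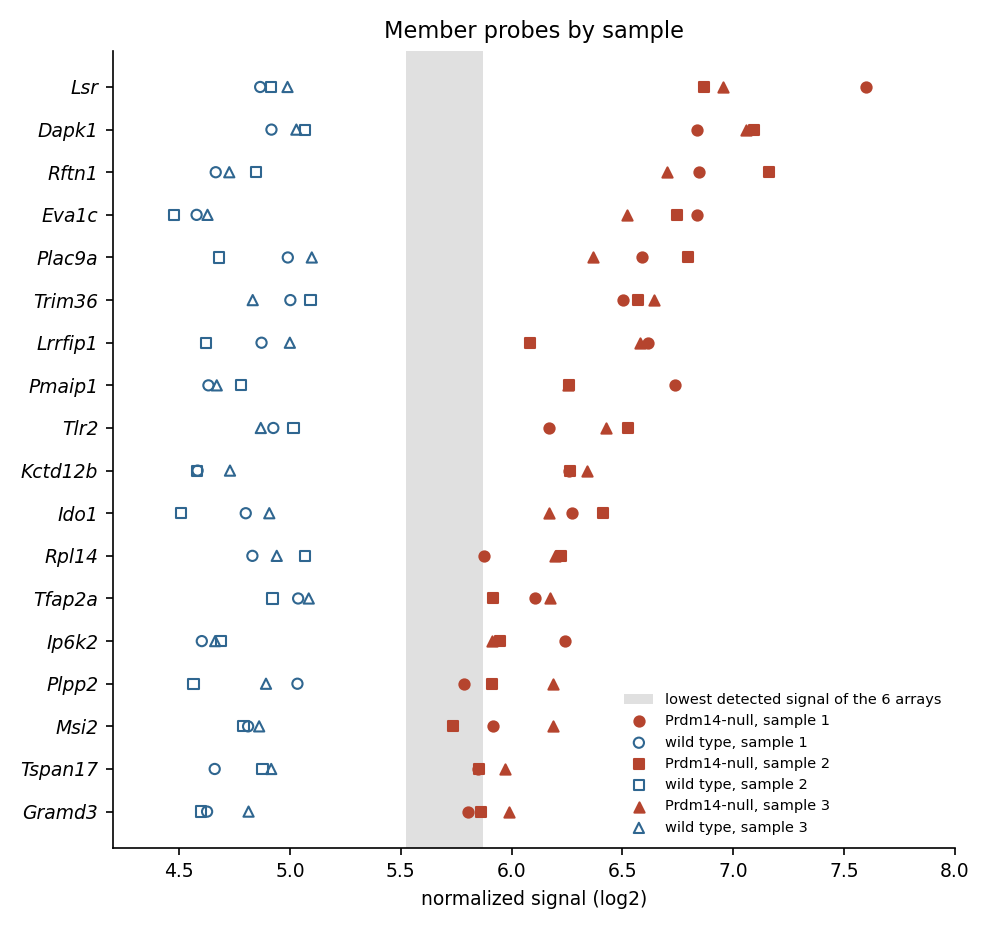
Normalized log2 signal of the 18 selected probes in each of the 3 null and 3 wild-type samples, ordered by the null mean, with a grey band over the lowest detected signals of the 6 arrays (5.52 to 5.87). Null points lie above wild-type points in every row, from *Lsr* at the top (7.14) to *Gramd3* at the bottom (5.88).

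The 7 genes of the membrane and cell surface were the largest of the groups by known role, which were assigned by hand. They held both the brightest and the dimmest of the selected probes. How common each role is among all genes on the arrays was not counted, so the group sizes are only a description. Levels in this and the following paragraphs are those of the selected probes unless stated. *Lsr* (chromosome 7, 30957770 to 30973469), the lipolysis-stimulated lipoprotein receptor that also builds tricellular tight junctions, read 7.60, 6.87 and 6.95 in the null samples and 4.87, 4.92 and 4.99 in the wild type. On the background-corrected scale it was at least 2.80-fold higher, and on the authors' processed scale its log2 difference was 0.82. Before normalization its deposited signals were 275, 157 and 158 in the null against 59.1, 80.8 and 89.6 in the wild type, so that null sample 1 stood above the other two and its SD, 0.40, was the widest of the set. *Rftn1* (chromosome 17, 49993258 to 50190497), which encodes raftlin, an organizer of lipid rafts, read 6.85, 7.16 and 6.70 in the null and 4.66, 4.85 and 4.73 in the wild-type samples, at least 2.38-fold higher. *Eva1c* (chromosome 16, 90826719 to 90905109) encodes a membrane protein whose *Caenorhabditis elegans* counterpart is a receptor for the guidance cue Slit. It read 6.84, 6.75 and 6.52 against 4.58, 4.48 and 4.63, at least 2.07-fold higher. The null and wild-type ranges of these genes did not overlap, which the selection all but fixes and which held for 22.8% of all tested probes.

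The selected probes of the other 4 genes of this group read lower. *Kctd12b* (chromosome X, 153685154 to 153696386), of a family whose members include auxiliary subunits of GABA-B receptors, read 6.26, 6.26 and 6.34 in the null samples and 4.58, 4.58 and 4.73 in the wild type. Its SD of 0.05 in the null cells was the smallest of the 18. *Plpp2* (chromosome 10, 79526424 to 79533787), a phospholipid phosphatase, read 5.78, 5.91 and 6.18 against 5.03, 4.56 and 4.89. *Tspan17* (chromosome 13, 54789102 to 54796775) belongs to the tetraspanins that guide the metalloprotease ADAM10 to the surface, and read 5.85, 5.85 and 5.97 against 4.66, 4.88 and 4.91. *Gramd3* (chromosome 18, 56387485 to 56503792), a GRAM domain protein, had the dimmest selected probe, with 5.80, 5.86 and 5.99 against 4.63, 4.60 and 4.81. These lie close to the edge of detection, with bounds of at least 1.55-fold for *Kctd12b*, 1.24-fold for *Plpp2*, 1.18-fold for *Tspan17* and 1.17-fold for *Gramd3*.

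Cell death was the known role of 3 genes. *Dapk1* (chromosome 13, 60601723 to 60763191), the calcium/calmodulin-dependent death-associated protein kinase, had the second brightest of the selected probes, with 6.84, 7.09 and 7.06 in the null samples against 4.92, 5.07 and 5.03 in the wild type, at least 2.53-fold higher. *Pmaip1* (chromosome 18, 66458604 to 66465558) encodes NOXA, a BH3-only protein that is a p53 target and promotes apoptosis. Its selected probe read 6.74, 6.26 and 6.26 against 4.63, 4.78 and 4.67, at least 1.70-fold higher, and null sample 1 was again the highest. *Ip6k2* (chromosome 9, 108783764 to 108806333), an inositol hexakisphosphate kinase with a role in apoptosis, read 6.24, 5.95 and 5.91 against 4.60, 4.69 and 4.66, at least 1.3-fold higher. A list of 26 p53 target genes gave a mixed picture. Of its 21 tested genes 6 were called higher and 1 lower, and 14 did not pass, with a median log2 difference of 0.22 against 0.02 over all 8343 genes. Over those genes 6.69% were called higher and 8.4% lower. Without background correction, with an offset of 50, on the authors' scale and with the trended robust fit, 3 genes of the list were lower and 6 higher. The higher ones were *Pmaip1*, read there by its brighter probe, *Bbc3* (0.57, the BH3-only protein PUMA), *Ccng1* (0.48), *Psrc1* (0.75), *Xpc* (0.54) and *Ercc5* (0.69, like *Xpc* a nucleotide excision repair gene), and *Sesn1* was lower (-0.53). *Cdkn1a* and *Mdm2*, the best known targets, did not pass, at 0.14 and 0.07. With each sample left out in turn 1 to 4 genes of this list were called higher, with 1 left without null sample 2 and without wild-type sample 3. The calls of *Ccng1* and *Xpc* ended in all 6 such fits, that of *Sesn1* in 5, that of *Ercc5* in 4 and those of *Bbc3* and *Psrc1* in 3.

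Innate immunity and tryptophan breakdown were the known roles given to 3 genes. *Tlr2* (chromosome 3, 83836272 to 83841824), the Toll-like receptor for bacterial lipoproteins, read 6.17, 6.52 and 6.43 in the null samples against 4.92, 5.02 and 4.87, at least 1.65-fold higher. *Ido1* (chromosome 8, 24584133 to 24596952), an interferon-inducible enzyme that opens the tryptophan ring on the way to kynurenine, read 6.27, 6.41 and 6.17 against 4.80, 4.51 and 4.91, at least 1.55-fold higher. *Lrrfip1* (chromosome 1, 90996930 to 91128944), a nucleic acid-binding protein, read 6.62, 6.08 and 6.58 against 4.87, 4.62 and 5.0, at least 1.71-fold higher, with null sample 2 the lowest. The blood and macrophage markers had no named probe past the detection filter, as given above. In a list of 30 interferon and innate immune genes 16 were tested. Called higher were 6 (*Tlr2*, *Samd9l* by 1.80, *Nlrc4* by 1.54, *Bst2* by 1.24, *Stat4* by 0.78 and *Stat2* by 0.48), 0 were lower and 10 did not pass, with a median log2 difference of 0.44, against 6.69% higher, 8.4% lower and a median of 0.02 over all 8343 genes. The whole list was chosen with earlier results of these data known, and *Tlr2* entered it with its result known. *Irf1* and *Irf9*, transcription factors of the interferon response, read -0.19 and -0.48 without passing. The call of *Stat2* ended whenever any 1 sample was left out, and the count fell to 3 when detection on all 6 arrays was required, which leaves out *Tlr2*, *Samd9l* and *Nlrc4* by construction.

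Transcription, RNA binding and the ribosome accounted for 3 genes. *Tfap2a* (chromosome 13, 40713802 to 40738238) encodes the transcription factor AP-2 alpha of neural crest, surface ectoderm and trophoblast. Its selected probe read 6.11, 5.92 and 6.17 in the null against 5.04, 4.92 and 5.08 in the wild-type samples, at least 1.33-fold higher. *Msi2* (chromosome 11, 88339382 to 88718306), the RNA-binding protein Musashi 2, read 5.91, 5.74 and 6.19 against 4.81, 4.79 and 4.86, at least 1.22-fold higher. *Rpl14* (chromosome 9, 120571517 to 120574653), a protein of the large ribosomal subunit made in every cell, read 5.87, 6.22 and 6.19 against 4.83, 5.07 and 4.94. The 76 probes of other *Rpl* and *Rps* genes that passed the detection filter had a median of 13.7 in the null cells (range 5.83 to 14.7). Of these, 1 was dimmer than the *Rpl14* probe. Probes below the filter and symbols marked -ps or -rs were left out beforehand, so the low end of the range is set in part by the filter. No other named probe of *Rpl14* was on the annotation used here, so the gene's overall level is not known from these arrays.

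Trophectoderm genes, the list that holds *Tfap2a*, did not move one way. Of 21 genes 12 were tested, of which 2 were called higher (*Tfap2a* by its brighter probe and *Gata3* by 1.49) and 3 lower (*Krt7* by -1.67, *Cdh3* by -1.44 and *Krt8* by -0.89), and 7 did not pass. The median log2 difference was -0.32, and over all 8343 genes it was 0.02, with 6.69% called higher and 8.4% lower. *Cdx2*, the master regulator of this lineage, was measured on all arrays and read -0.35 without passing. The call of *Krt7* ended without null sample 1 and without wild-type sample 2. The other 7 of the 10 lists examined hold none of the 18 genes.

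A ubiquitin ligase and a secreted peptide completed the set (2 genes). *Plac9a* (chromosome 14, 25888403 to 25902893), a small secreted protein named for its expression in placenta, read 6.59, 6.80 and 6.37 in the null samples against 4.99, 4.68 and 5.10, at least 1.90-fold higher. *Trim36* (chromosome 18, 46165300 to 46212607), a microtubule-associated ubiquitin ligase, read 6.5, 6.57 and 6.64 against 5.0, 5.09 and 4.83, at least 1.89-fold higher. Both were selected close to the wild-type limit. The 18 genes lay on 13 chromosomes, with 3 on chromosome 13, 3 on chromosome 18 and 2 on chromosome 9. These 3 chromosomes held 3.48%, 2.44% and 5.76% of the tested genes, in that order. Whether position plays a part was not tested.

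Other probes of the same genes showed that absence from wild-type cells held for the probe and not always for the gene. Of the 18 genes, 8 had a further 12 named probes, and all 12 had a higher mean in the null cells. For *Tspan17*, *Plpp2*, *Tfap2a*, *Trim36* and *Msi2* (5 genes) another probe was detected on all 3 wild-type arrays. *Tspan17* was the clearest case, with its brightest probe at 10.02, 9.79 and 9.91 in the null and 8.89, 9.0 and 8.91 in the wild-type samples. The brighter probe of *Tfap2a* read 8.15, 8.35 and 8.25 against 6.84, 6.56 and 6.82. For *Plpp2* the means were 8.54 ± 0.30 and 7.56 ± 0.11, and for *Trim36* 7.66 ± 0.34 and 6.14 ± 0.19. In these 5 genes a transcript was thus read in both genotypes.

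*Msi2* had the most probes, with 4 besides the selected one. The brightest read 8.34 ± 0.10 in the null and 7.19 ± 0.17 in the wild-type cells, and the next 7.82 ± 0.21 and 7.12 ± 0.16. The remaining ones were near background, at 5.89 ± 0.21 against 5.11 ± 0.08 and at 5.41 ± 0.42 against 4.82 ± 0.05. The selected probe was designed on a cDNA clone rather than on the reference transcript that the 2 brightest probes read. *Pmaip1* had a second probe at 8.37, 7.88 and 7.90 in the null and 5.60, 5.86 and 5.57 in the wild-type samples, detected on 2 wild-type arrays. Null sample 1 was the highest for both *Pmaip1* probes. The second probe of *Dapk1* read 6.63, 6.74 and 6.23 against 5.05, 5.23 and 4.69, and was not detected at 0.01 in any wild-type sample, although its lowest wild-type detection p was 0.0321. The second probe of *Ip6k2* read 5.76 ± 0.05 against 4.66 ± 0.18, with a highest null detection p of 0.0118. For *Dapk1* and *Ip6k2*, then, both probes were dim or undetected in wild-type cells. The remaining 10 genes were read by a single named probe each.

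**Figure D3:**
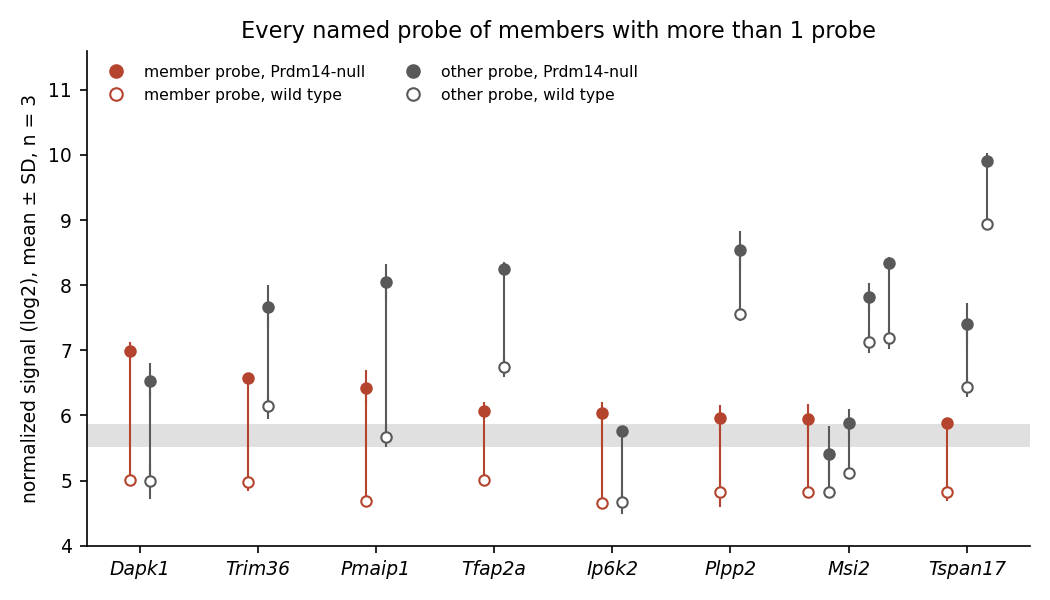
Mean normalized log2 signal (SD bars, n = 3) of the selected and the other named probes of the 8 genes with several probes, in null (filled) and wild-type (open) cells, joined by a line for each probe, with the lowest detected signals of the arrays as a grey band. The other probes of *Tspan17*, *Plpp2*, *Tfap2a*, *Trim36* and *Msi2* include ones detected on all 3 wild-type arrays, the brightest being that of *Tspan17* (9.91 and 8.93).

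Membership depended on where the 2 detection limits were set. Just inside the limit for null cells were *Msi2*, *Ip6k2* and *Plpp2*, with highest null detection p-values of 0.00748, 0.00641 and 0.00534. Just outside were *Pirt* and *Marf1*, both at 0.0107, and *St6galnac3* at 0.0118. At the wild-type limit *Plac9a* and *Trim36*, both with a lowest wild-type p of 0.0577, and *Tfap2a* at 0.0609 were just inside, and *Crym* and *Apof*, both at 0.0459, and *Duxbl1* at 0.0427 just outside. A further 20 probes missed the conditions on 1 wild-type array only, 10 of them on wild-type array 2, and 21 on 1 null array only. With a wild-type limit of 0.10, 9 genes remained (*Eva1c*, *Gramd3*, *Ido1*, *Ip6k2*, *Kctd12b*, *Msi2*, *Pmaip1*, *Rftn1* and *Tspan17*). With a limit of 0.01 there, 101 genes met the conditions, and the looser limit keeps all 18 by construction.

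**Figure D4:**
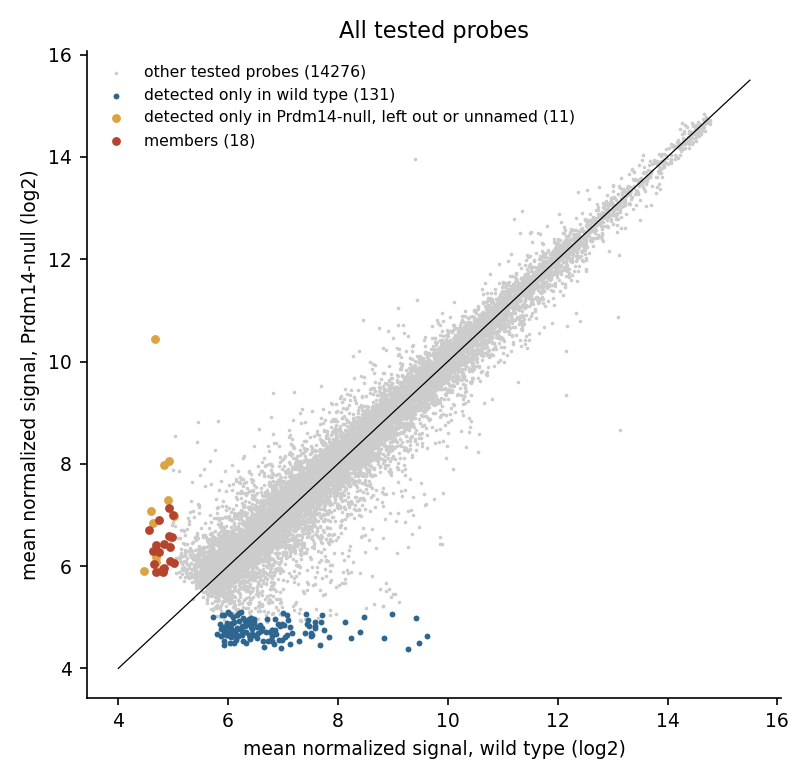
Mean normalized log2 signal of each probe in wild-type cells (x axis) and in null cells (y axis), with the 18 selected probes the 11 further probes of the same pattern and the 131 probes of the reversed pattern coloured, and a diagonal at equal signal. The 18 have a median of 4.82 in wild-type and 6.33 in null cells, and the brightest of the 11 further probes is that of *Baiap2l1*, at 10.4 in null cells.

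The size of the difference depended on how dim signals were treated. The median log2 difference of the 18 genes was 1.57 (range 1.05 to 2.22) after background correction, and 0.50 (range 0.32 to 0.82) in the processed values of the authors. On all 5 scales examined every one of the 18 had a higher null mean with no overlap between samples, which the selection all but fixes. Of all tested probes 20.4% lay without overlap in that direction with median scaling and 22.8% on each of the other scales. The median over all tested probes was between 0.02 and 0.03 on each of them.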

How the data were processed

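RNA of 3 wild-type and 3 *Prdm14*-null samples was read on 6 arrays. The authors deposited signal intensities of 45281 probes without normalization, and beside each signal a deposited detection p-value, in steps of 1 in 936. They also deposited processed log2 values of 15961 probes, made with lumi per the submitters' processing notes, version not given. No signal was identical between arrays at a probe (0).

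The signals were background-corrected with limma 3.58.1 in R 4.3.3 (normal-exponential model inferred from the detection p-values, offset 16), put on the log2 scale and quantile-normalized. Probes with a detection p under 0.01 on at least 3 arrays (14436) were fitted with lmFit and eBayes, with genotype as the term and Benjamini-Hochberg adjustment over all of them. Simulated data with known changes were used to test the fit. In the gene lists a gene was represented by its brightest probe. The lowest detected signal per array lay between 5.52 and 5.87 on the log2 scale, and the number of arrays limits precision.

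Gene names came from the platform annotation of the 15961 probes (13842 with 1 symbol), of which 13829 probes matched GRCm38.p6. Symbols beginning Slc or Zfp and 12 genes were left out of the selection. The members, the gene lists and the rule for named genes (*Prdm14*, the brightest members, the brightest of each role group and list, and the probes next to each limit) were chosen with earlier results of these data known. Role groups were assigned by hand once the members were listed, and the list genes and members named beyond that rule were named after their values were seen. No BeadChip block was fitted, since no source used here assigns the arrays to chips.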

Additional observations from a re-analysis of the deposited data

How the results depend on the processing

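The number of selected genes, 18, became 65 with a null detection limit of 0.05, 101 with a wild-type limit of 0.01 and 9 with one of 0.10. It ran from 22 to 29 with 1 sample left out, the highest being without null replicate 3. A looser limit or a left-out sample drops a condition, so these counts could not fall below 18. The median null signal of the 18 genes, 6.33, was 6.98 without background correction, 6.84 with an offset of 50, 6.29 with median scaling, 7.46 on the authors' scale and 6.80 with the brightest probe of each gene. It ran from 6.30 to 6.34 with 1 null sample left out. Probes called higher numbered 475 to 699 and lower 713 to 937 with 1 sample left out, against 894 and 1092, with 475 and 713 reached without null replicate 2, and 562 and 556 higher without wild-type replicates 2 and 3. The other scales, filters and variance model kept both counts within 1.5 times. With a replicate block 663 were higher and 925 lower. Deviations of samples of the same number had correlations of -0.03, -0.06 and -0.12. With 3 samples per genotype these values cannot settle whether samples of the same number share a passage or a chip. Under that replicate block the p53 target list held 2 higher and 0 lower genes, and without the detection filter 3 and 0. The trophectoderm list then held 1 higher and 2 lower genes, and 1 and 1 where detection on all 6 arrays was required. The cause of these changes was not tested. Signals this close to background limit how far the differences of dim genes can be sized.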
